A study of Mus musculus with 2 samples.

Results

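The non-cycling Havcr2-positive CD8 T cells of mouse colon tumours were described here. Their members were chosen by measured transcript counts. A barcode was kept with under 20% of its unique molecular identifiers (UMIs) from mitochondrial genes, at most 1 UMI of the tumour gene Hmga2, at least 2 UMIs of Cd8a and Cd8b1 together, at least 1 UMI of the CD3 genes Cd3d, Cd3e and Cd3g, no Cd4 UMI, at most 1 UMI over the cycling genes Mki67, Top2a, Birc5 and Pclaf, and at least 1 UMI of Havcr2. This selected 149 of the 26063 barcodes deposited, 140 in the library from tumours treated with SLC7A11 antibody and 9 in the control library. The closest comparison is the same gate with 0 Havcr2 UMIs, which held 239 cells, 194 in the antibody library and 45 in the control library.

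Havcr2 encodes TIM-3, an inhibitory receptor that T cells put on their surface after activation and keep under prolonged antigen stimulation. In mouse tumours, CD8 T cells that carry TIM-3 together with PD-1 are known as the late, or terminally differentiated, end of the exhausted lineage, while TIM-3-negative cells include a progenitor pool that depends on the transcription factor TCF-1, the product of Tcf7. TIM-3 is also made by macrophages and dendritic cells. Its known ligands include galectin-9, HMGB1 and CEACAM1.

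The tumours grew from CT26, an established mouse colon carcinoma line. Mice received an antibody to SLC7A11, a transporter that brings cystine into cells in exchange for glutamate, or control IgG, both at 10 mg/kg every 2 days, starting at a tumour volume of 50 to 100 mm³. The design text names an injection at the caecal junction and also subcutaneous growth, so the site is uncertain, and the strain, the age, the number of mice per library and the day of collection are not given in the sources used here. Tissue was dissociated with enzymes and run on a droplet platform that counts the 3′ ends of transcripts.

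Each group was 1 library, so no difference below has a replicate check and no test between groups was possible. Intervals are 95% exact intervals (Clopper-Pearson for shares, Poisson for levels, conditional binomial for ratios) and cover counting error only. Levels are counts scaled to 1000000 UMIs of the gate (CPM), and ratios are log2 values with a prior count of 0.5. The libraries held 143658800 UMIs in 12153 antibody barcodes and 129044329 UMIs in 13910 control barcodes, and 39 barcode sequences occurred in both, 0 of them in the Havcr2-positive gate. The 140 antibody members held 460974 UMIs, with a median of 2947 per cell (570 to 18079). The 9 control members held only 22909 UMIs, with a median of 2480 (1525 to 3355). The floor of 3 counts, used below for genes with 0 UMIs, is 131 CPM there. The 95% Poisson interval of 0 UMIs reaches 161 CPM, so limits against the floor are less cautious than the intervals. Havcr2-negative cells were shallower in both libraries, with medians of 2346.5 UMIs in the antibody and 1689 UMIs in the control library.

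The labels call the cell type of both samples goblet cells, which the members were not. Over 7 goblet genes (Muc2, Tff3, Fcgbp, Spink4, Clca1, Agr2 and Zg16) they had 1 UMI in the antibody library and 0 in the control library. Cd8a, Cd8b1 and the CD3 genes were fixed by the rule. Of the markers that it did not use, Prf1 was seen in 93.6% of the 140 antibody members, Ccl4 in 93.6%, Gzmb in 92.1% and Lag3 in 80.0%. Prf1 was seen in all 9 control members and Gzmb in 7 of them, but Ccl4 and Lag3 in 0, so those cells do not carry the full marker set. Foxp3, which defines regulatory T cells, was at 0 in both gates of both libraries.

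Havcr2-positive cells made up a larger share of the non-cycling CD8 T cells in the antibody library. They were 140 of 334 cells (41.9%, interval 36.6 to 47.4) there, and 9 of 54 (16.7%, 7.92 to 29.3) in the control library, a log2 ratio of 1.33 (0.36 to 2.49) or 2.52-fold. Because 1 UMI is enough to enter the gate, the share depends on depth. With each cell thinned to 1000 UMIs it was 74 of 327 antibody cells (22.6%, 18.2 to 27.6) and 7 of 51 control cells (13.7%, 5.70 to 26.3), and these intervals overlap. With all barcodes thinned before the gate was applied, the log2 ratio was 0.57 and its interval, -0.57 to 1.95, included 0. The difference was thus not resolved at equal depth.

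Set against all kept barcodes, every CD8 population was more frequent in the antibody library. As deposited, the Havcr2-positive one had the highest ratio of the 3. It was 1.16% of 12073 antibody barcodes (0.976 to 1.37) and 0.0649% of 13864 control barcodes (0.0297 to 0.123), 17.9-fold (log2 4.16, 3.19 to 5.32). Havcr2-negative non-cycling cells were 1.61% and 0.325%, a log2 ratio of 2.31 (1.83 to 2.81). Cycling CD8 T cells were 1.44% and 0.180%, which is 7.99-fold, with an interval of 2.39 to 3.67 on the log2 scale. This overlaps the Havcr2-positive interval, so the order of the Havcr2-positive and cycling ratios was not resolved. The split by Havcr2 depends on depth, and the Havcr2-positive log2 ratio was 3.16 with all barcodes thinned before gating.

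Most members sat close to the threshold that chose them. In the antibody library 66 of the 140 cells had 1 Havcr2 UMI, 45 had 2, 16 had 3, and the remaining 13 had between 4 and 9, against 194 cells just outside with 0. Of the 9 control cells 5 had 1 UMI, 1 had 2, 1 had 3 and 2 had 4. On the cycling side, 102 antibody members had 0 UMIs and 38 had 1 UMI of the 4 cycling genes, and 18 Havcr2-positive cells were left out with 2. The control members were 4 at 0 and 5 at 1, with 0 cells at 2.

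**Figure D1:**
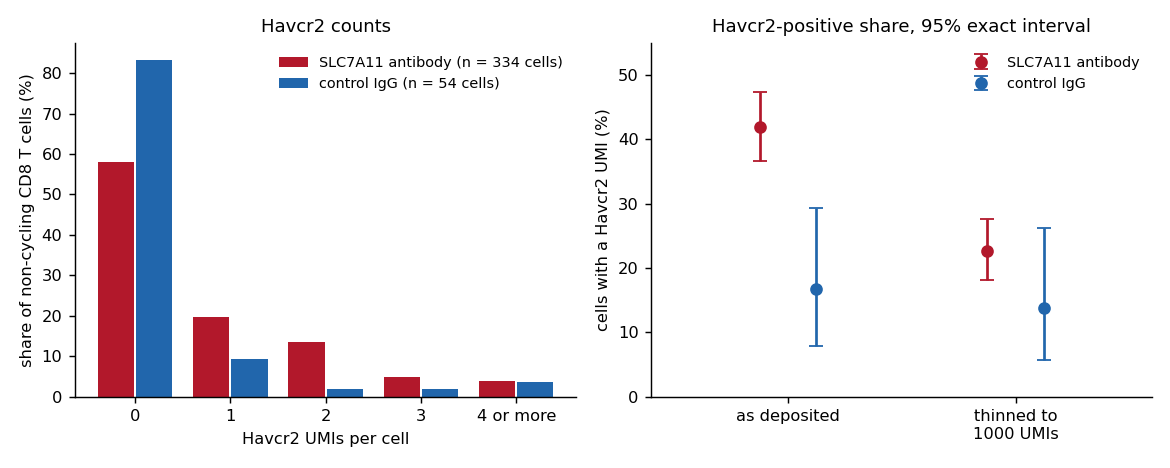
Left, share of non-cycling CD8 T cells (%) by their number of Havcr2 UMIs, in the antibody (n = 334 cells) and control (n = 54 cells) libraries. Right, share of cells with a Havcr2 UMI (%) as deposited and with each cell thinned to 1000 UMIs, with 95% exact intervals as bars. The antibody share is 41.9% against 16.7% as deposited and 22.6% against 13.7% after thinning, where the intervals overlap.

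Havcr2 transcripts were not confined to these cells. The gate held 273 of the 1686 Havcr2 UMIs of the antibody library (16.2%) and 18 of the 424 of the control library (4.25%). Barcodes with at least 5 UMIs over the macrophage complement genes C1qa, C1qb and C1qc held 24.0% in the antibody library and 46.0% in the control library. In barcodes with at least 5 Hmga2 UMIs and no CD3 UMI, taken here as background because tumour cells should lack the gene, 3.96% carried a Havcr2 UMI in the antibody library and 1.32% in the control library, at median depths of 18354 and 11548 UMIs. At 1000 UMIs per barcode those shares were 0.307% and 0.169%, far under the shares in CD8 T cells.

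The Havcr2-positive state was set against the Havcr2-negative one within each library. Of 6005 genes with at least 20 UMIs over both gates in the antibody library, 119 were at least 2-fold higher (1.98%) and 244 at least 2-fold lower (4.06%) in Havcr2-positive cells. The control library, with 882 such genes, had 49 higher (5.56%) and 98 lower (11.1%), with few UMIs behind most of these genes. Ratios lay above 0 for 2736 of the 6005 and 435 of the 882 genes. These shares over all genes are the background for the list counts below. Over 881 genes with enough counts in both, 2 were 2-fold higher in both libraries (0.227%) and 8 were 2-fold lower in both (0.908%). Prf1 was the only higher one, and C1qa, Ccl8 and Cd69 were the only lower ones, that also passed the naming rule on the share of cells and the kind of gene. Of those 8 lower genes 7 had 0 UMIs in the 9 control members, and 7 of the 8 (C1qa, C1qb, C1qc, Ccl7, Ccl8, Lgmn and Pf4) are genes that macrophages express.

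The lytic granule genes led the genes that were higher. Prf1, which encodes the pore-forming protein perforin, had 2382 CPM (2243 to 2527) in Havcr2-positive and 1099 CPM (1013 to 1191) in Havcr2-negative cells of the antibody library, a log2 ratio of 1.11 (0.97 to 1.26). The control levels were 5107 CPM (117 UMIs in 9 cells) and 1400 CPM (117 UMIs in 45 cells), a log2 ratio of 1.87 (1.49 to 2.25). Every control member carried it, with 5, 6, 7, 8, 11, 16, 18, 19 and 27 UMIs, against a median of 1 UMI in the Havcr2-negative control cells. At 1000 UMIs per cell Prf1 was seen in 78.3% of Havcr2-positive and 52.4% of Havcr2-negative antibody cells, with intervals that do not overlap. The difference was present in both libraries.

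Gzmb, the serine protease granzyme B, had 3736 CPM (3561 to 3916) in Havcr2-positive and 2213 CPM (2090 to 2342) in Havcr2-negative antibody cells, a log2 ratio of 0.75 (0.65 to 0.86). The control ratio was 1.29 (0.83 to 1.74), with 0, 0, 1, 1, 3, 5, 10, 12 and 37 UMIs in the 9 members, so 1 cell held 37 of the 69 UMIs. When all barcodes were thinned before gating, which left 52 positive and 173 negative antibody cells, the antibody ratio of Gzmb was -0.22, against 0.54 for Prf1. The antibody Gzmb ratio thus turned round under that setting and the Prf1 ratio did not. The control Gzmb ratio was -0.37 with a cycling sum of 0 and 0.33 with at least 2 Havcr2 UMIs, each of which left 4 positive control cells. The control Prf1 ratios there were 1.70 and 1.93.

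Nkg7, a granule membrane protein needed for degranulation, was at 4705 CPM in Havcr2-positive and 3559.9 CPM in Havcr2-negative antibody cells (0.40, 0.31 to 0.49), and its control ratio was 0.56 (0.29 to 0.82). Gzmd, Gzme and Gzmf, rarer granzymes of the same chromosomal cluster as Gzmb, had larger ratios that rested on few cells. Gzme had 120 UMIs in 11.4% of Havcr2-positive and 20 UMIs in 5.15% of Havcr2-negative antibody cells (2.79, 2.13 to 3.58), with 24.2% of the positive UMIs in 1 cell. Gzmd had 93 and 8 UMIs (3.69, 2.74 to 5.03), with 23.7% in 1 cell, and Gzmf had 80 and 35 (1.42, 0.84 to 2.04), with 28.8% in 1 cell. With all barcodes thinned before gating, Gzme was at -1.34 and Gzmf at -1.32.

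Of the 15 measured genes of the granzyme and perforin list, 4 were at least 2-fold higher, none was 2-fold lower (0) and the median log2 ratio was 0.38, beside -0.04 over all genes. Of 10 measured in the control library 3 were 2-fold higher and the median was 0.49, beside -0.01. Gzmk, typical of an earlier effector-memory state, did not separate the gates (0.17, -0.44 to 0.79), and neither did Fasl, the Fas ligand (-0.01, -0.41 to 0.38). Serpinb9, the inhibitor with which killer cells protect themselves from granzyme B, was at 0.38 (0.06 to 0.70), but 23.9% of Havcr2-positive and 25.9% of Havcr2-negative cells carried it after thinning.

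The inflammatory chemokines Ccl3, Ccl4 and Ccl5, which attract T cells and myeloid cells, were all more than 2-fold higher in Havcr2-positive cells of the antibody library. Ccl4 had 7302 CPM (7057 to 7553) in Havcr2-positive and 3220.5 CPM (3071 to 3375) in Havcr2-negative cells (1.18, 1.10 to 1.27). Its median was 15 UMIs per positive and 2 UMIs per negative cell. Ccl5 had 5016 and 2394 CPM (1.07, 0.97 to 1.17), and Ccl3 had 1731 and 736 CPM (1.23, 1.06 to 1.41).

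At 1000 UMIs per cell, where depth no longer differs, Ccl4 was seen in 84.1% (76.9 to 89.7) of Havcr2-positive and 56.6% (49.2 to 63.8) of Havcr2-negative antibody cells, against 2.69% of the Hmga2-high background. As deposited the shares were 93.6% and 66.5%, against 23.1% of the Hmga2-high barcodes. For Ccl3 the thinned shares were 57.2% and 30.7%, and for Ccl5 87.0% and 59.8%, with backgrounds of 0.794% and 1.90% (9.85% and 13.5% as deposited). The Hmga2-high barcodes had a median of 18354 UMIs, so thinning removed most of their UMIs and may understate the free RNA of shallower T cells. The order of the gates was the same for all 3 genes. With all barcodes thinned before gating, the log2 ratios were 0.88 for Ccl3, 1.03 for Ccl4 and 0.64 for Ccl5. In UMIs the control library ran the other way, with 0 UMIs of Ccl4 in its 9 positive cells and 64 UMIs in its 45 negative cells, a log2 ratio of -2.55 or lower against the floor of 3 counts. Ccl5 had 0 and 20 UMIs there (-0.87 or lower), and Ccl3, with 0 and 3 UMIs, could not be compared. A single negative cell held 29 of those 64 Ccl4 UMIs, and 1 negative cell held 8 of the 20 Ccl5 UMIs. After thinning, Ccl4 was seen in 0% of positive (0 to 33.6) and 16.7% of negative (6.97 to 31.4) control cells, so these shares were not resolved with 9 cells. Higher chemokine levels in Havcr2-positive cells were thus not seen in the control library.

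Ifng, the cytokine interferon gamma, had 859 CPM in Havcr2-positive and 590 CPM in Havcr2-negative antibody cells (0.54, 0.33 to 0.76), and 46.4% and 32.3% of thinned cells carried it. Its control ratio, from 11 and 35 UMIs, was 0.24 (-0.93 to 1.21). Tnf did not separate the gates (-0.06, -0.87 to 0.73). Xcl1, which attracts cross-presenting dendritic cells, ran the other way, with 5 UMIs in Havcr2-positive and 148 UMIs in Havcr2-negative antibody cells (-4.52, -6.30 to -3.40). It was seen in 3 of 140 positive and 34 of 194 negative cells, and in 0 of 9 and 7 of 45 in the control library. Over the 10 measured effector cytokines and chemokines, 3 were 2-fold higher and 1 was 2-fold lower, with a median of 0.26. Among the 4 measured in the control library 2 were 2-fold lower and 1, Spp1, was 2-fold higher. Over all genes 1.98% were 2-fold higher and 4.06% 2-fold lower in the antibody library, and 5.56% and 11.1% in the control library. Spp1 encodes osteopontin, which macrophages and tumour cells also express.

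**Figure D2:**
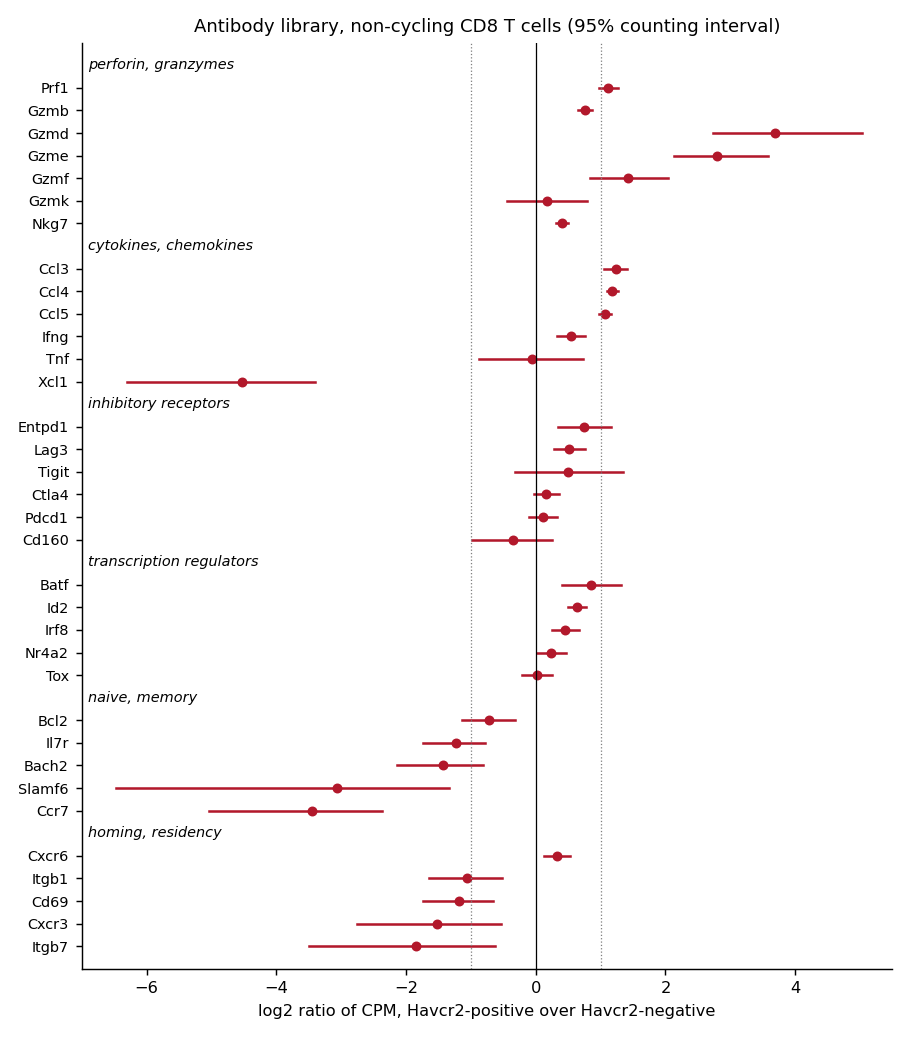
Log2 ratio of CPM, Havcr2-positive over Havcr2-negative non-cycling CD8 T cells of the antibody library, for 34 genes grouped by role. Points are ratios, lines are 95% counting intervals and dotted lines mark 2-fold. Prf1 (1.11) and Ccl3, Ccl4 and Ccl5 (1.07 to 1.23) lie right of 2-fold, Pdcd1 (0.11) and Tox (0.02) at 0, and Ccr7 (-3.45) and Xcl1 (-4.52) far to the left.

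Other inhibitory receptors followed Havcr2 only in part. Entpd1, the ectonucleotidase CD39, had 269 CPM in Havcr2-positive and 160.5 CPM in Havcr2-negative antibody cells (0.74, 0.34 to 1.16), and 27.5% and 10.6% of thinned cells carried it. Lag3, a receptor for MHC class II, had 681 and 476 CPM (0.52, 0.28 to 0.76). Pdcd1, which encodes PD-1, had 735 and 682.5 CPM, a ratio of 0.11 whose interval (-0.11 to 0.32) includes 0, and the control ratio was 0.12 (-0.58 to 0.73). Ctla4 (0.16, -0.03 to 0.36), Tigit (0.50, -0.32 to 1.35) and Cd160 (-0.36, -0.99 to 0.24) also had intervals that include 0.

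Of the 12 measured inhibitory receptors 10 lay above 0, beside 2736 of 6005 genes, with a median of 0.30. Only 1 was 2-fold higher, beside 1.98% of all genes. That one was Cd200r1, the receptor of CD200, with 14 and 8 UMIs. In single cells, at least 2 of Pdcd1, Lag3, Tigit and Ctla4 were seen in 124 of 140 Havcr2-positive (88.6%) and 165 of 194 Havcr2-negative (85.1%) antibody cells. Thinned, the shares were 54.3% (45.7 to 62.8) and 49.7% (42.4 to 57.1). Exactly 3 of the 4 were seen in 20.3% (13.9 to 28.0) of thinned positive and 10.1% (6.16 to 15.3) of thinned negative cells, with intervals that overlap. In the control library, 5 of 9 positive and 21 of 45 negative cells had at least 2 of the 4.

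The costimulatory receptors of activated T cells were close between the gates. Tnfrsf9, which encodes 4-1BB, had 1736 CPM in Havcr2-positive and 1417 CPM in Havcr2-negative antibody cells (0.29, 0.15 to 0.44). None of the 12 measured costimulatory receptors was 2-fold higher (0) and the median was 0.18, beside -0.04 over all genes. Beside 4.06% of all genes, 2 of the 12 were 2-fold lower. Those 2 were Cd7 (-2.51, -5.08 to -0.98) and Slamf7 (-1.16).

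Among the transcription regulators tied to exhaustion, Tox, the factor that establishes the exhausted state, did not separate the gates, with 655 CPM in Havcr2-positive and 646 CPM in Havcr2-negative antibody cells (0.02, -0.21 to 0.25). It was seen in 81.4% of positive and 73.7% of negative cells. Id2, which favours effector over memory fate, had 2202 and 1420.3 CPM (0.63, 0.50 to 0.77), and the control ratio was 0.80 (0.27 to 1.30). Batf, an AP-1 family factor, was at 230 and 127 CPM (0.85, 0.40 to 1.31), and Irf8 at 933 and 679 CPM (0.46, 0.25 to 0.66). Eomes, a T-box factor linked to late exhaustion, had 18 and 4 UMIs (2.27, 0.80 to 4.43). Ikzf2, which encodes Helios, was lower in Havcr2-positive cells (-0.59, -1.01 to -0.20).

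Of the 19 measured exhaustion regulators 15 lay above 0 with a median of 0.21, and 1 of them, Eomes, was 2-fold higher. Of 8 measured in the control library 7 lay above 0, with a median of 0.41. Over all genes 2736 of 6005 lay above 0 in the antibody and 435 of 882 in the control library. Rgs16, a regulator of G protein signalling, was at 518.5 and 336 CPM in the antibody library (0.63, 0.34 to 0.91).

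Genes of naive, memory and progenitor T cells were lower in Havcr2-positive cells. Tcf7, which encodes TCF-1, had 0 UMIs in 140 Havcr2-positive and 22 UMIs in 17 of 194 Havcr2-negative antibody cells. Against the floor of 3 counts for the positive gate this is a log2 ratio of -2.64 or lower, and 0 of 140 cells allows a share of up to 2.60% with a UMI. Dapl1, a memory-associated gene, had 0 and 28 UMIs, a log2 ratio of -2.99 or lower. In the control library Tcf7 had 0 UMIs in the 9 positive cells and 3 UMIs in 2 of the 45 negative cells, too few to compare.

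Ccr7, the receptor that leads T cells to lymph nodes, had 6 UMIs in Havcr2-positive and 83 UMIs in Havcr2-negative antibody cells (-3.45, -5.04 to -2.37). Slamf6, a surface marker of progenitor exhausted cells, had 2 and 24 UMIs (-3.06, -6.48 to -1.34). Il7r, the interleukin 7 receptor, had 113 and 267 CPM (-1.24, -1.73 to -0.78), the factor Bach2 had 58.6 and 160.5 CPM (-1.44, -2.13 to -0.82), and the survival protein gene Bcl2 had 169 and 279 CPM (-0.71, -1.13 to -0.32). Bcl2 was also lower in the control members, with 393 CPM (9 UMIs) against 825 CPM (69 UMIs) in Havcr2-negative cells, a log2 interval of -2.26 to -0.06. The Il7r ratio was 0.15 when all barcodes were thinned before gating. Of the 11 measured naive and memory genes 10 lay below 0 and 6 were 2-fold lower, with a median of -1.24, beside -0.04 over all genes. Even among Havcr2-negative antibody cells few carried Tcf7 (3.70%) or Ccr7 (12.2%) after thinning, while 24.3% carried Il7r.

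Several adhesion and homing genes were lower in Havcr2-positive than in Havcr2-negative cells of the antibody library. Cd69, an activation and residency marker, had 88.9 CPM in Havcr2-positive and 203 CPM in Havcr2-negative antibody cells (-1.18, -1.74 to -0.66), and 0 UMIs in the positive and 20 UMIs in the negative cells of the control library (-0.87 or lower against the floor). The integrin chains Itgb1 (-1.05, -1.64 to -0.51) and Itgb7 (-1.85, -3.50 to -0.63) and the chemokine receptor Cxcr3 (-1.52, -2.75 to -0.53) were also lower in Havcr2-positive antibody cells. Cxcr4 had 2 UMIs in positive and 13 UMIs in negative cells, under the count minimum. Cxcr6, the CXCL16 receptor of tissue T cells, was slightly higher (0.33, 0.12 to 0.53). Of 14 measured homing genes 5 were 2-fold lower, Ccr7 with the 4 above, and none 2-fold higher (0), with a median of -0.25. Of 7 measured homing genes in the control library 5 lay above 0, 1 was 2-fold lower and the median was 0.098. Over all genes 4.06% were 2-fold lower in the antibody and 11.1% in the control library. Itgae, the CD103 chain of epithelial resident cells, had 0 UMIs in both gates of both libraries.

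**Figure D3:**
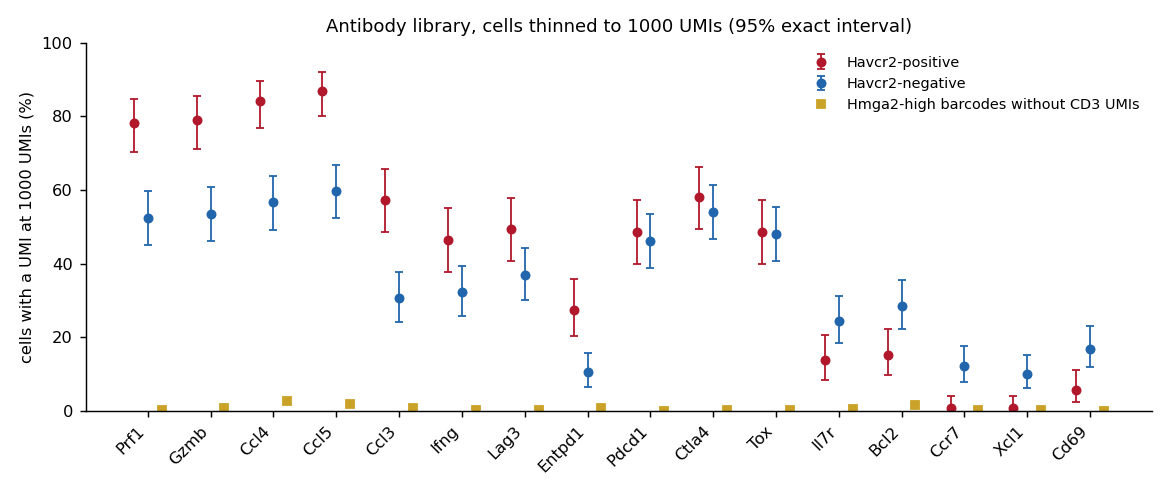
Share of cells with at least 1 UMI (%) after thinning each cell to 1000 UMIs, for 16 genes in Havcr2-positive and Havcr2-negative cells of the antibody library, with 95% exact intervals. Squares give Hmga2-high barcodes without CD3 UMIs. Prf1, Gzmb and the Ccl genes are seen in more Havcr2-positive cells, Pdcd1, Ctla4 and Tox in like shares of both, and Il7r, Bcl2, Ccr7, Xcl1 and Cd69 in fewer.

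By a rule set after the values were seen (at least 50 UMIs, seen in 10% of the cells of a gate, past 2-fold), the 12 highest and the 12 lowest genes of Havcr2-positive cells in the antibody library were also listed. Beside members of the lists above, the highest included Serpinb9b, a granzyme inhibitor relative (1.98, 1.20 to 2.88), Fcrl6, a receptor for MHC class II on cytotoxic lymphocytes (1.79, 0.95 to 2.77), Filip1 (1.26, 0.73 to 1.82), and Serpine2, a protease inhibitor (1.06, 0.57 to 1.57). Both Fcrl6 (8 and 1 UMIs, 4.37, 1.97 to 10.34) and Serpinb9b (8 and 2 UMIs, 3.63, 1.54 to 7.14) were also higher in the positive gate of the control library. Filip1 was seen in 37.9% of Havcr2-positive and 13.4% of Havcr2-negative cells. Dnajb1, a heat shock gene, was at 1.18 with 39.1% of its positive UMIs in 1 cell, and Odc1, ornithine decarboxylase, at 1.08 (0.39 to 1.83). Among the 12 lowest were Gpr183, the oxysterol receptor that guides lymphocytes (-1.53, -2.08 to -1.03), Itpkb, an inositol kinase (-2.23, -3.50 to -1.26), Ssh2 (-2.34), Gpr18 (-2.23), Emb (-1.49) and Gramd3 (-1.46).

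The rest of the 12 lowest were Xcl1 and Ccr7, described above, and the macrophage genes C1qa, C1qb, C1qc and Apoe. The summed level of macrophage markers differed between the gates. The 14 macrophage markers summed to 950 CPM in Havcr2-positive and 2029 CPM in Havcr2-negative cells of the antibody library, and to 175 CPM and 4474 CPM in the control library. As deposited, the share of cells with a UMI of them ran the other way, at 79.3% of positive and 68.6% of negative antibody cells. In the control library it was 4 of 9 and 16 of 45 cells. The lower sums thus do not mean that fewer positive cells carried such UMIs. All 14 were detected in the antibody gates, while 11 of 14, C1qa and Csf1r among them, were at 0 in the control members. At least 2 UMIs over C1qa, C1qb, C1qc, Csf1r and Lyz2 were carried by 53 of 140 positive and 60 of 194 negative antibody cells. Without those cells, Prf1 was at 1.20, Ccl3 at 1.17, Ccl4 at 1.03, Ccl5 at 1.24, Xcl1 at -4.84, Slamf6 at -3.11 and Gzmb at 0.52, and the naive and memory median was -0.87. The cells kept could still hold 1 UMI of those 5 genes or UMIs of other macrophage genes. C1qa was at 0.63 in them and at -1.83 in all cells, but C1qa is one of the genes that chose the cells left out.

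The 12 dendritic markers, mostly through the MHC class II genes H2-Aa, H2-Ab1 and Cd74 and through Bst2, summed to 1540.2 CPM in Havcr2-positive and 2721 CPM in Havcr2-negative antibody cells, with Flt3 and Clec9a at 0. In the control library they summed to 480 and 1017 CPM. The 12 NK markers, which include Prf1, summed to 3044 and 1782 CPM in the antibody library, with Klra8 and Klra4 at 0. In the control library they summed to 6242 and 3230 CPM, with Ncr1, the natural cytotoxicity receptor that defines NK cells, at 0 in both gates. The 12 tumour markers (436 and 362 CPM) and 10 fibroblast markers (798 and 496 CPM) were somewhat higher in the Havcr2-positive gate of the antibody library. The part of RNA from these other cell types in the ratios was not tested.

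The level of the effector genes differed with the number of Havcr2 UMIs within the gate as well. Prf1 had 1099 CPM at 0, 1764 CPM at 1 and 2886 CPM at 2 or more Havcr2 UMIs in the antibody library, and the step between 1 and at least 2 was 0.71 (0.53 to 0.90) on the log2 scale. Lag3 had 476, 522 and 811 CPM along the same order, with a step of 0.63 (0.29 to 0.99) between the last groups. Ifng had 590, 517 and 1138 CPM, so that only the cells with at least 2 Havcr2 UMIs stood apart (1.13, 0.81 to 1.47). Ccl5 had 2394, 4962 and 5059 CPM, with no step inside the gate (0.03, -0.09 to 0.15). Pdcd1 (0.05, -0.26 to 0.37) and Tox (-0.16, -0.50 to 0.17) had none either. Median depth was 2346.5, 2767.5 and 3061.5 UMIs in the 3 groups. Gzmd and Gzme lay almost wholly in the cells with at least 2 Havcr2 UMIs, at 354 and 468.5 CPM there, against 14.5 and 4.83 CPM in those with 1.

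**Figure D4:**
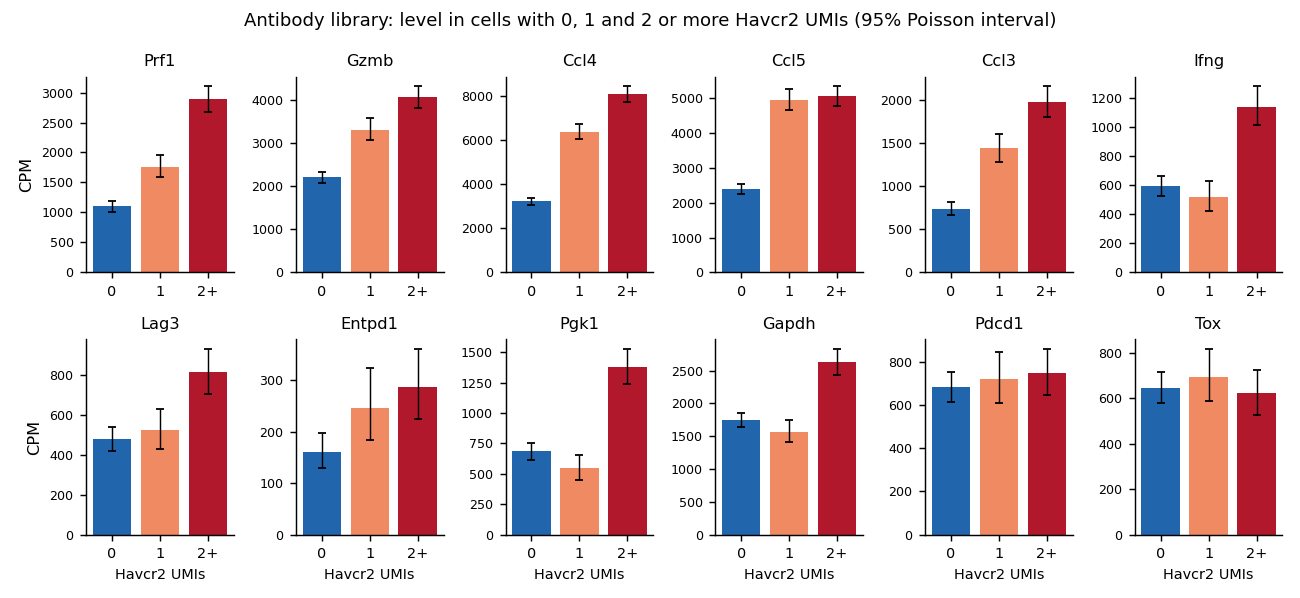
Levels (CPM) of 12 genes in non-cycling CD8 T cells of the antibody library with 0 (194 cells), 1 (66 cells) and 2 or more (74 cells) Havcr2 UMIs, with 95% Poisson intervals as bars. Prf1, Gzmb, Ccl4 and Ccl3 increase at each step, Ccl5 between 0 and 1, Ifng, Lag3, Pgk1 and Gapdh mainly at 2 or more, and Pdcd1 and Tox at none.

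Glycolysis and hypoxia genes were mostly a little higher in Havcr2-positive cells. In the antibody library 19 of 21 measured members lay above 0, none was 2-fold higher (0) and the median was 0.19, and in the control library 9 of 11 lay above 0 with 2 at 2-fold and a median of 0.45. Gapdh had 2152 CPM in Havcr2-positive and 1743 CPM in Havcr2-negative antibody cells (0.30, 0.17 to 0.43), and the control ratio was 0.96 (0.56 to 1.35). Pgk1, phosphoglycerate kinase, was at 1004 and 684 CPM (0.55, 0.35 to 0.75), but 24.0% of its positive UMIs came from 1 cell. These genes were also seen in 72.3% (Pgk1) and 84.4% (Gapdh) of Hmga2-high barcodes at 1000 UMIs, and the part of free RNA in these ratios was not tested. Oxidative phosphorylation genes had a median of -0.05 over 22 members, with 0 past 2-fold either way.

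The antibody's target was scarce in these cells. Slc7a11 had 8 UMIs in Havcr2-positive and 8 UMIs in Havcr2-negative antibody cells (0.23, -1.38 to 1.85), 50.0% of the positive ones in 1 cell, and 0 UMIs in either gate of the control library. After thinning it was seen in 0.725% of Havcr2-positive cells and in 2.46% of Hmga2-high barcodes. Those barcodes were chosen by a tumour gene and may express Slc7a11 themselves, so their share is not a free RNA background here. Slc3a2, the heavy chain that SLC7A11 shares with other amino acid transporters, was equal between the gates, with 371 and 373 CPM (-0.01, -0.31 to 0.29). The 12 measured cystine, glutathione and ferroptosis genes had a median of 0.04, with 0 members past 2-fold, and Gpx4, the lipid peroxide reductase, was at -0.03 (-0.63 to 0.57). All 5 genes of this list measured in the control library lay below 0, 1 of them 2-fold lower, with a median of -0.36. Of 8 measured amino acid stress genes 1 was 2-fold lower, with a median of -0.51. It was Shmt2, the mitochondrial serine hydroxymethyltransferase, with 4 and 24 UMIs.

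Interferon genes had medians near that of all genes (-0.04) in the antibody library. The 20 measured type I interferon genes had their median at -0.19, with 13 below 0, beside 3269 of 6005 genes. Of them 2 were 2-fold lower (Oasl2 and Ifi44, both -1.40), beside 4.06% of all genes. Of 5 measured in the control library 4 lay below 0, with a median of -1.59, beside 447 of 882 genes and -0.01. Interferon gamma genes had a median of -0.02 over 21 members in the antibody library. In the control library 5 of 6 lay above 0 with a median of 0.33, beside 435 of 882 genes. These control values rest on few genes, so a difference between the classes was not shown. The TIM-3 ligands and partners had a median of 0.00 over 8 members, with Lgals9 (galectin-9) at -0.07 and Hmgb1 at 0.02. MHC class I (0.02), T cell receptor and signalling (0.07), apoptosis (-0.04), dissociation and early genes (0.03, with 2 of 19 at 2-fold higher), cytokine receptors (-0.14, with 2 of 17 at 2-fold lower) and other proliferation genes (-0.04) had medians near that of all genes.

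The cycling CD8 T cells just outside the gate were also often Havcr2-positive. Of the antibody library's CD8 T cells with a Havcr2 UMI 41.7% (100 of 240, 35.4 to 48.2) were cycling, against 27.6% (74 of 268, 22.3 to 33.4) of those without. Cycling cells were deeper, with a median of 5211.5 UMIs, and with barcodes thinned before gating the shares were 16.1% (8.02 to 27.7) and 18.8% (13.8 to 24.7). The order was thus not kept at equal depth. In the control library the shares were 6 of 15 and 19 of 64. Cycling antibody cells had 1224 CPM of Prf1 and 3655 CPM of Ccl4, nearer to the Havcr2-negative than to the Havcr2-positive non-cycling level, and 2874 CPM of Gzmb.

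T cell receptor beta segments were read in few cells. Of 23 Havcr2-positive antibody cells with a single beta variable segment 11 had Trbv13-1 (47.8%, 26.8 to 69.4), as did 10 of 31 Havcr2-negative cells (32.3%, 16.7 to 51.4). Trbv14 (4 and 5 cells) and Trbv2 (4 and 7 cells) followed in both gates. The same segments led in both, and the intervals overlap.

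The antibody members were then set against the 9 control members. Of 3684 genes with at least 20 UMIs over both, 894 were at least 2-fold higher (24.3%) and 637 at least 2-fold lower (17.3%) in the antibody library, and 725 of the 894 higher ones had 0 UMIs in the control members. Against the floor of 3 counts only 12 of those 725 reached 2-fold, so the count of higher genes rests mostly on the prior count. With counts in both groups, 169 genes were 2-fold higher and 637 were 2-fold lower. Each ratio was also computed for all other kept barcodes of the libraries. After subtracting that ratio 580 genes were 2-fold higher and 805 were 2-fold lower. Before subtraction the median over all genes was -0.14, and -0.49 with genes at 0 set to their bound. The list of dissociation and early genes, which cells switch on during tissue handling, had a median of 1.41 over 19 members (1.11 with bounds), with 13 of them 2-fold higher in the antibody members. After subtraction its median was 0.33, and the part of handling in the other ratios was not tested.

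The chemokines stood at the head of the named genes. Ccl4 had 3366 UMIs in the 140 antibody members and 0 in the 9 control members, a log2 ratio of at least 5.80 against the floor, while in all other barcodes it was 0.78. Ccl5 had 2312 and 0 UMIs (at least 5.26, 1.71 in other barcodes) and Ccl3 had 798 and 0 UMIs (at least 3.72, 0.11 in other barcodes). In Havcr2-negative cells the ratios were 2.06 for Ccl4, 3.29 for Ccl5 and 4.14 for Ccl3. The control library did hold these transcripts elsewhere: Ccl4 had 1641 CPM in its C1q-high barcodes, against 698 CPM in those of the antibody library, and 766 CPM in its Havcr2-negative CD8 T cells, where 11 of 45 carried it. None of the 9 control members carried any of the 3 (0 UMIs each), which allows up to 131 CPM. The Havcr2-negative control levels of Ccl4 (766 CPM) and Ccl5 (239 CPM) lay above both values, and that of Ccl3 (35.9 CPM) lay below both. Ccl5 was carried by only 6 of those 45 Havcr2-negative cells, and the interval does not cover such differences between cells.

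Lag3 had 314 UMIs in the antibody and 0 in the control members, a log2 ratio of at least 2.38 against the floor. The ratio in other barcodes was 3.48, so the difference was not shown to be particular to the gate. The other named higher genes were near the detection limit of the control gate. Anxa1 (annexin 1), Uqcr10, Csf1 (macrophage colony-stimulating factor), Atp6v1d, Zeb2 (a factor of terminal effector cells) and Psmd1 had 61 to 93 UMIs in the antibody and 0 in the control members, with bounds between 0.02 and 0.62 on the log2 scale. None of these 6 bounds reached 2-fold. Sh3kbp1 had 182 and 1 UMIs (2.60, 0.68 to 8.49).

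Perforin ran against the chemokines. Prf1 had 2382 CPM in the antibody and 5107 CPM in the control members (-1.11, -1.38 to -0.81), while it was at 1.23 in other barcodes and at -0.35 in Havcr2-negative cells. Nkg7 was lower too, at 4705 and 7333 CPM (-0.64, -0.87 to -0.41), and so was Gzmf (-2.36, -3.05 to -1.55). Gzmb did not differ beyond counting error (0.30, -0.04 to 0.68). Nor did Tox (-0.38, -1.01 to 0.41) or Ifng (0.78, -0.02 to 1.85), while Pdcd1 was at 735 CPM in the antibody and 1179 CPM in the control members (-0.70, -1.25 to -0.06). That Pdcd1 ratio was -0.32 with median-of-ratios scaling, -0.40 with at least 2 Havcr2 UMIs and -0.42 with a cycling sum of 0.

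The 10 named lower genes were Pglyrp1 (-2.41, -3.11 to -1.60), Sla2, an adaptor that damps T cell receptor signals (-2.23, -3.11 to -1.15), Isg20 (-2.03), the cathepsin genes Ctsw (-1.99) and Ctsc (-1.69), of which cathepsin C activates granzymes, Fcrl6 (-1.91), the integrin chain Itga4 (-1.68), Fgl2 (-1.29, -2.40 to 0.32), Camk4 (-1.24) and Gimap3 (-1.15). In Havcr2-negative cells several of them were lower in the antibody library as well, at -1.41 for Pglyrp1, -1.37 for Itga4, -1.30 for Isg20, -1.27 for Ctsw and -0.89 for Sla2, so these differences were not shown to be particular to the Havcr2-positive gate. The other 5 had intervals that include 0 there. The 10 were ranked after subtracting the ratio in other barcodes, so a high ratio there is in part fixed by the choice. All 10 were higher in the antibody library in other barcodes, between 0.25 for Pglyrp1 and 3.10 for Fgl2. T cells were more frequent in that library, and the part of free T cell RNA in those other barcodes was not tested. The T cell receptor and signalling list had a median of -0.09 before and -1.87 after other barcodes were subtracted.

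**Figure D5:**
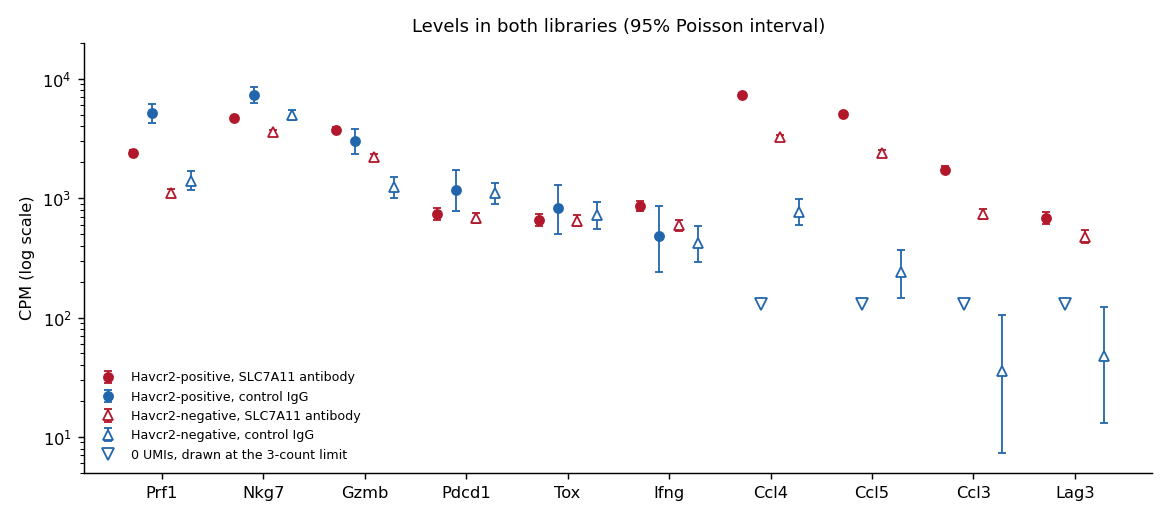
Levels (CPM, log scale) of 10 genes in Havcr2-positive (filled circles) and Havcr2-negative (open triangles) non-cycling CD8 T cells of the antibody (140 and 194 cells) and control (9 and 45 cells) libraries, with 95% Poisson intervals. Open inverted triangles mark 0 UMIs, drawn at the level of 3 counts (131 CPM). Prf1 and Nkg7 are higher in the control members, while Ccl4, Ccl5, Ccl3 and Lag3 have 0 UMIs in them.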

How the data were processed

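The authors deposited 1 table of raw UMI counts (genes by barcodes) for each library. Cell Ranger 7.2.0, Seurat and build mm10 are named in the submitters' processing notes. All values were whole numbers, and every deposited barcode had at least 500 UMIs. Groups came from the treatment label. The members, the gene lists and the comparisons were chosen with earlier results of these data known. Counts were summed per gate and library and divided by the gate's total. Genes needed 20 UMIs over the groups compared, and a ratio against 0 counts used a floor of 3 counts. With 1 library per group no test was run and no p-value is given. The ratio and interval code was tested on simulated data.

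Named genes passed 2-fold and 10% of cells, and for the comparison of libraries 50 UMIs and 2-fold after subtracting the ratio of all other barcodes, up to 12 (gates) or 10 (libraries) per side. Gate, mitochondrial, ribosomal, haemoglobin, antigen receptor and sex-linked genes were left out, as were gene models with no name of their own. List members could also be named, chosen after their values were seen. The goblet list and the naming rule for the antibody library alone were added after seeing the data. Free RNA was not corrected. Doublets were kept in the main values and removed in an alternative (top Scrublet scores, 0.8% per 1000 barcodes), which took 9 of 140 and 0 of 9 members. Thinning drew 1000 UMIs per cell and left out 2 antibody members and 5 antibody and 3 control Havcr2-negative cells. Of 489 list symbols 4 were in neither table. Python 3.11.15, numpy 2.4.6, scipy 1.17.1, scanpy 1.11.5 and matplotlib 3.10.9 were used.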

Additional observations from a re-analysis of the deposited data

How the results depend on the processing

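No paired analysis was possible because each group was 1 library and the labels give no replicate numbers that both share. The log2 ratio of the Havcr2-positive share of non-cycling CD8 T cells lay between 1.16 and 1.95, with intervals above 0, under 5 alternatives. With barcodes thinned before gating it was 0.57 and its interval included 0. The ratio over all kept barcodes was 3.16 with barcodes thinned before gating and 4.04 to 4.87 under the other alternatives. The genes 2-fold lower in Havcr2-positive cells of both libraries, 8 in the main setting, numbered 5 with a mitochondrial share under 10% and at least 1000 UMIs, 4 with the mean over scaled cells, 1 without the highest Scrublet scores, and 0 without cells with macrophage UMIs or with a cycling sum of 0. The higher and lower counts, 2 and 8 in the main setting, were 0 and 2 with barcodes thinned before gating, 1 and 1 with members thinned, 1 and 2 at a count minimum of 50, and 159 and 88 at a count minimum of 1. Between the libraries, 894 genes were higher and 637 lower in the antibody members. Those counts were 361 and 296 without cells with macrophage UMIs, 81 and 52 with barcodes thinned before gating, 248 and 186 with members thinned, 492 and 347 with at least 2 Havcr2 UMIs, and 276 and 148 at a count minimum of 50. Genes with 0 control UMIs make up 725 of the 894. The higher count was 365 with a cycling sum of 0, and the lower count was 292 with median-of-ratios scaling and 6893 at a count minimum of 1. The cell filters and the thinning keep fewer cells or UMIs, the count minimum changes which genes are counted, and the scaling alternatives keep all cells; the cause of the moves under the scalings was not tested. A prior of 0.5 counts pulls genes with few UMIs down in the larger gate, which bears on the count at a minimum of 1. Ratios of the macrophage genes turned round most. Without cells with macrophage UMIs, a filter that uses the C1q genes themselves, C1qa was at 0.63, C1qb at 0.69, C1qc at 0.066 and Apoe at 0.62 in the antibody library, and Ccl8 was at 1.66 in the control library. Apoe was at 0.0093 without the highest Scrublet scores and Ccl8 at 1.11 with a cycling sum of 0. With barcodes thinned before gating, Apoe was at 0.15, Gzme at -1.34, C1qa at 0.86 and Ccl8 at 4.03 in the control library, and, between the libraries, Atp6v1d at -0.086 and Gimap3 at 0.46. The macrophage list's median between the libraries was -0.011 at a count minimum of 1, against 1.16 in the main setting. The cause of these turns was not tested. The 9 control members and 1 library per group limit every statement between the libraries, and free RNA was not corrected.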
